A study of Mus musculus with 27 samples.

Results

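Immediate early genes are switched on within minutes of a stimulus, before any new protein is made. This report follows 10 of them, Fos, Fosb, Jun, Junb, Atf3, Egr1, Egr2, Nr4a1, Ier2 and Dusp1, chosen by name, among the 18194 mouse genes that the arrays measured. The choice was made with earlier results of these data known. The lung RNA came from female mice of 3 inbred strains, 10-12 weeks old, killed 24 h after a single x-ray exposure of the whole thorax. The groups were CBA/J mice at 0 (sham), 12.5 and 15 Gy, C57L/J mice at 0, 12.5 and 15 Gy, and C57BL/6J mice at 0, 12.5 and 15 Gy, with 3 mice and 3 arrays in each of the 9 groups. All mice were unmodified inbred animals of a single sex, and no RNA was pooled. The study called C57L/J lungs radiation sensitive and C57BL/6J lungs radiation resistant. Whole lung holds many cell types, so fewer cells of a type and less RNA per cell cannot be told apart in any value below.

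Fos, FosB, Jun and JunB are leucine zipper proteins that pair to form the transcription factor AP-1, and ATF3 is a stress-induced relative. EGR1 and EGR2 are zinc finger transcription factors, NR4A1 is an orphan nuclear receptor, IER2 is a small nuclear protein, and DUSP1 is a phosphatase that takes the phosphates off MAP kinases. MAP kinases and cyclic AMP switch these genes on through the serum response factor (SRF), its ternary complex partners and CREB, which are already present in the resting cell. The transcripts are short-lived, so each mouse's level is a snapshot at the time of death.

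Regulatory sequence was set beside the values because several members moved together. RefSeq promoters on GRCm38.p6, from 250 bases before to 50 after the transcript start, were in hand for 8 of the 10 members, all but Egr1 and Ier2. The windows printed here lie upstream of the start, for Fos, Nr4a1 and Dusp1, which were lower in irradiated C57BL/6J lungs, and for Egr2, which passed no test there. Capitals mark TGACG on either strand (its reverse complement reads CGTCA), the core of the CREB and ATF site, its full palindrome TGACGTCA in Dusp1, and the CArG box, the SRF site, in Egr2.
Fos, chr12:85473750-85473889, + strand: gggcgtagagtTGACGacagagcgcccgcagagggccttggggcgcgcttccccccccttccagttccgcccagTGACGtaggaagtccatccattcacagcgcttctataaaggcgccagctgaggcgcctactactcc
Nr4a1, chr15:101266606-101266845, + strand: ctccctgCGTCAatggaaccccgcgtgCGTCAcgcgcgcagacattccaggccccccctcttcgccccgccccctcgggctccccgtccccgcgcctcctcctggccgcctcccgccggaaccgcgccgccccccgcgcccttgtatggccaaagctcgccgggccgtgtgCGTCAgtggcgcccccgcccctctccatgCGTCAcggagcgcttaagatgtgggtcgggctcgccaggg
Dusp1, chr17:26508473-26508672, - strand: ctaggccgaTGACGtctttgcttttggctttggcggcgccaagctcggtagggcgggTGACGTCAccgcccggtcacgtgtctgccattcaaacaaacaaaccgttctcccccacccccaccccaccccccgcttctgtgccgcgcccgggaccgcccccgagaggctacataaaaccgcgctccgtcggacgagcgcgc
Egr2, chr10:67537739-67537868, + strand: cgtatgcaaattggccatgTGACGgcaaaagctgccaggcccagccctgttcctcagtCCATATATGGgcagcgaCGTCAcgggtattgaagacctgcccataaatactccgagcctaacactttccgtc

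Searched on both strands, TGACG was found in the promoters of 7 of the 8 members, Jun being the exception, and in 20.8% of all 32851 promoters of the same length. In the Nr4a1 window TGACG stood 4 times, and in the Fos window at -129 and -66 from the start. The palindrome TGACGTCA, which contains TGACG, was found in Dusp1 alone among the 8, at -143, and in 1.79% of all promoters. The CArG box, in its strict form, was found in Egr2 alone among the 8, for 4 of its 5 listed starts, and in 1.63% of all promoters. A member was counted when any of its listed starts held the motif, while the percentages count each promoter separately. Looser forms, sites further than 250 bases before the start, and the promoters of Egr1 and Ier2 were not searched. TATAAA, searched on the coding strand, lay at -33 in Fos and at the start itself in Junb, and was found anywhere in the window in 8.32% of all promoters. These matches describe letters only.

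Values are log2 of the deposited array intensity, and a difference of 1 is a 2-fold change in intensity. Every array had been scaled to the same trimmed mean of 500.002, and each member was read from its brightest probe set, the group of probes that reports a transcript. No member fell under an intensity of 32 on any of the 27 arrays. Lung epithelium was plain on every array, with Sftpc, a surfactant gene, between 14.23 and 14.93. On 9 arrays the mean of 10 skeletal muscle markers lay 2.94 to 8.30 above the median array, against -0.70 to 0.45 on the other 18. Those 9 were 2 of 3 at CBA/J 0 Gy, CBA/J 12.5 Gy, C57BL/6J 12.5 Gy and C57BL/6J 15 Gy, and 1 of 3 at C57L/J 15 Gy. Between muscle and other arrays of the same group, Fosb differed by 0.16 to 1.18 and Atf3 by 0.07 to 0.55, higher on muscle arrays in 5 of 5 groups. Nr4a1 differed by -0.16 to 0.67 and was higher on muscle arrays in 4 of 5 groups. Egr2 and Ier2 were higher on muscle arrays in 1 of 5 groups each, and Fos differed by -0.65 to 0.24. The part of muscle RNA in each result was not tested beyond the values without those arrays, given below.

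The first question was whether each strain's members changed with dose. The clearest change was a loss in C57BL/6J lungs, where Fos, Egr1 and Nr4a1 were lower at both doses, Ier2 was lower at 12.5 Gy, and Dusp1 and Junb were lower at 15 Gy. C57L/J lungs had lower Nr4a1 at 12.5 Gy and no member passed at 15 Gy. In CBA/J lungs Atf3 was higher at 12.5 Gy and Dusp1 was higher at 15 Gy. A gene was called at an unadjusted limma p under 0.01, with 3 mice in each group. Over the 9 comparisons, those between 15 and 12.5 Gy included, 14 of 90 tests passed, 4 higher and 10 lower, 1 of them with an adjusted p under 0.05. The 10 lower calls were all against sham, and of the 4 higher calls Fos and Nr4a1 in C57L/J lungs were between the doses.

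**Figure D1:**
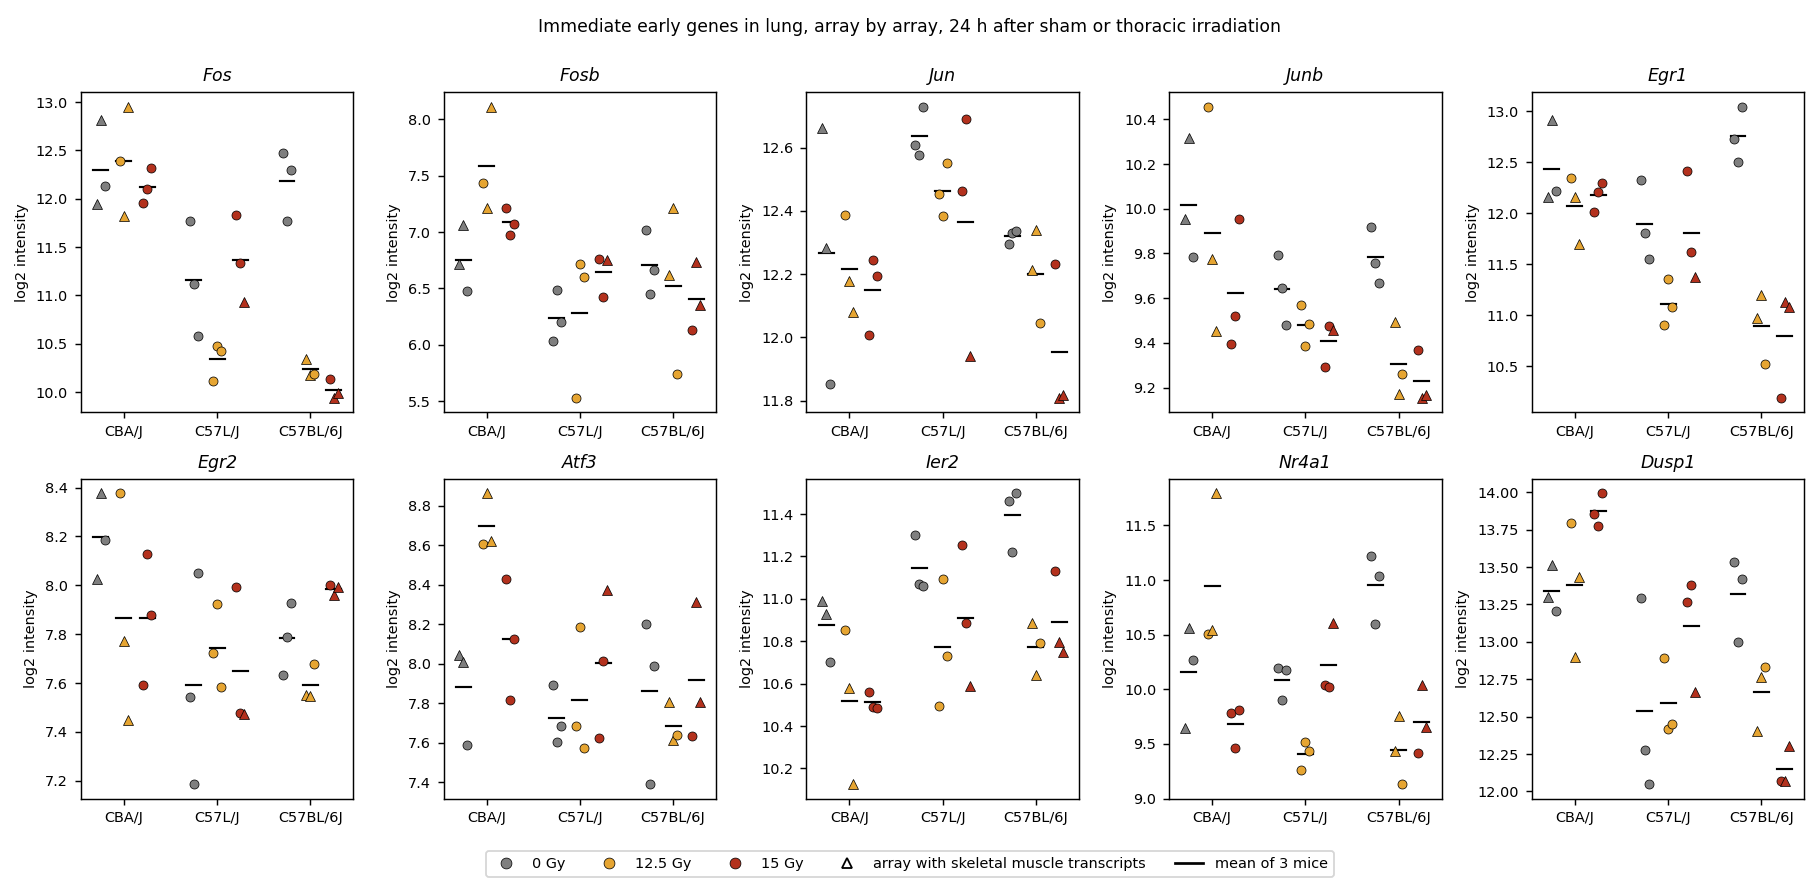
Log2 intensity of the 10 members on all 27 arrays, by strain, with doses running left to right from 0 to 15 Gy within each strain; each point is the lung of 1 mouse, triangles are arrays with skeletal muscle transcripts and bars are means of 3 mice. Fos, Egr1 and Nr4a1 in C57BL/6J lungs lie below every sham value at both doses, with Fos at 9.94 to 10.34 irradiated and 11.77 to 12.48 sham.

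Fos (probe set 1423100_at) lost most in C57BL/6J lungs. Its levels there were 12.48, 11.77 and 12.29 at 0 Gy, 10.34, 10.18 and 10.18 at 12.5 Gy, and 10.13, 9.94 and 9.99 at 15 Gy. All 6 irradiated lungs lay below every sham lung, and the irradiated mice differed little among themselves. The fall was 3.85-fold at 12.5 Gy (log2 difference -1.95, 95% interval -2.46 to -1.43, limma unadjusted p = 0.000107, adjusted p = 0.0366) and 4.46-fold at 15 Gy (-2.16, -2.68 to -1.64, limma unadjusted p = 6.22e-05, adjusted p = 0.0662). On the C57BL/6J arrays without muscle transcripts, Fos was 10.18 at 12.5 Gy and 10.13 at 15 Gy, 1 array each. In C57L/J lungs Fos was 11.77, 11.12 and 10.58 at 0 Gy, 10.11, 10.47 and 10.43 at 12.5 Gy, and 11.83, 11.34 and 10.93 at 15 Gy. The 12.5 Gy lungs were all below the sham lungs (-0.82, limma unadjusted p = 0.0442), while the 15 Gy and sham lungs overlapped. Between the doses, Fos was 2.04-fold higher at 15 than at 12.5 Gy in C57L/J (1.03, limma unadjusted p = 0.00847, adjusted p = 0.988), a call lost in 5 of 6 leave-one-out fits at p of 0.0167 to 0.0319. CBA/J lungs held 11.94, 12.81 and 12.13 at 0 Gy, 12.39, 11.82 and 12.95 at 12.5 Gy, and 11.96, 12.10 and 12.32 at 15 Gy, and the groups overlapped. By group means, Fos was highest at CBA/J 12.5 Gy (12.39 ± 0.57), CBA/J 0 Gy (12.30 ± 0.46), C57BL/6J 0 Gy (12.18 ± 0.37) and CBA/J 15 Gy (12.13 ± 0.18), which did not differ beyond their spread. The C57L/J 15 Gy (11.37 ± 0.45) and 0 Gy (11.16 ± 0.60) groups came next, and the lowest were C57L/J 12.5 Gy (10.34 ± 0.20), C57BL/6J 12.5 Gy (10.23 ± 0.09) and C57BL/6J 15 Gy (10.02 ± 0.10, SD, 3 mice each).

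Junb (1415899_at) made a smaller move in the same strain. Its C57BL/6J levels were 9.92, 9.76 and 9.67 at 0 Gy, 9.49, 9.17 and 9.26 at 12.5 Gy, and 9.37, 9.15 and 9.17 at 15 Gy. Neither irradiated group overlapped the sham group. The difference was -0.55 at 15 Gy (SE 0.14, limma unadjusted p = 0.00744, adjusted p = 0.242) and -0.48 at 12.5 Gy (limma unadjusted p = 0.0190). The 15 Gy call was lost without any single one of the 6 arrays, at unadjusted p of 0.0106 to 0.0303. In C57L/J lungs Junb ranged from 9.29 to 9.79 and in CBA/J lungs from 9.39 to 10.46, with no call in either strain.

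Of the other AP-1 and ATF members, Atf3 alone passed a test against sham. Fosb (1422134_at) was 6.71, 7.07 and 6.48 at 0 Gy, 7.44, 7.21 and 8.11 at 12.5 Gy, and 7.22, 6.97 and 7.07 at 15 Gy in CBA/J lungs, where the 12.5 Gy lungs lay above the sham lungs (0.83, limma unadjusted p = 0.0297). It ranged from 5.53 to 6.76 in C57L/J and from 5.74 to 7.21 in C57BL/6J lungs, with overlapping doses. Jun (1417409_at) kept between 11.81 and 12.73 over all 27 arrays and passed in no within-strain test. Its second probe set, 1448694_at, gave differences over the 3 strains of -0.13 at 12.5 Gy and -0.16 at 15 Gy, beside -0.12 and -0.25 for the first. Atf3 (1449363_at) read 8.04, 8.01 and 7.59 at 0 Gy, 8.61, 8.86 and 8.62 at 12.5 Gy, and 8.43, 7.82 and 8.13 at 15 Gy in CBA/J lungs. All 3 lungs at 12.5 Gy were above every sham lung, by 1.76-fold on average (0.82, SE 0.18, limma unadjusted p = 0.00475, adjusted p = 0.243). The call was lost in 5 of 6 leave-one-out fits, at p of 0.011 to 0.0193. In this comparison 2 of 3 irradiated and 2 of 3 sham lungs carried muscle transcripts. In the other strains Atf3 ran from 7.39 to 8.37.

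Egr1 (1417065_at) followed Fos in C57BL/6J lungs, with 12.72, 12.50 and 13.04 at 0 Gy, 10.98, 11.20 and 10.52 at 12.5 Gy, and 10.19, 11.13 and 11.08 at 15 Gy. The lowest sham lung was more than 1 unit above the highest irradiated lung. The fall was 3.62-fold at 12.5 Gy (-1.86, 95% interval -2.44 to -1.27, limma unadjusted p = 0.000264, adjusted p = 0.0506) and 3.87-fold at 15 Gy (-1.95, -2.70 to -1.20, limma unadjusted p = 0.000762, adjusted p = 0.143). The C57BL/6J irradiated arrays without muscle transcripts gave 10.52 at 12.5 Gy and 10.19 at 15 Gy, the lowest array of each dose. In C57L/J lungs Egr1 was 12.33, 11.80 and 11.55 at 0 Gy, 10.90, 11.35 and 11.08 at 12.5 Gy, and 12.41, 11.62 and 11.38 at 15 Gy. There the 12.5 Gy lungs were all below the sham lungs (-0.78, limma unadjusted p = 0.0186), and the 15 Gy lungs overlapped them. CBA/J lungs lay between 11.69 and 12.92 with the doses overlapping. Egr2 (1427683_at) is known for its part in myelination and in T cells. With this probe set it stayed between 7.19 and 8.38 on all arrays and passed in no within-strain test. In C57BL/6J lungs its 15 Gy values of 8.0, 7.96 and 7.99 lay above its 12.5 Gy values of 7.55, 7.55 and 7.68 (0.39, limma unadjusted p = 0.0145). Its second, dimmer probe set, 1427682_a_at, differed within these strains. In C57BL/6J lungs that probe set read 6.66 to 7.42 at 12.5 Gy and 6.71 to 7.35 at 15 Gy, so the doses overlapped. In C57L/J lungs it read 6.18 to 6.76 at 0 Gy and 6.77 to 6.94 at 12.5 Gy. The C57L/J 15 Gy lungs also lay above every sham lung with it, the highest at 7.65.

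Nr4a1 (1416505_at), a receptor gene used as a readout of antigen receptor signalling in lymphocytes, was 11.22, 10.60 and 11.03 at 0 Gy, 9.43, 9.76 and 9.13 at 12.5 Gy, and 9.42, 10.04 and 9.66 at 15 Gy in C57BL/6J lungs. All irradiated lungs were below every sham lung. It fell 2.85-fold at 12.5 Gy (-1.51, SE 0.24, limma unadjusted p = 0.000813, adjusted p = 0.0881) and 2.37-fold at 15 Gy (-1.25, SE 0.24, limma unadjusted p = 0.00222, adjusted p = 0.179). The 15 Gy call was lost without sham replicate 3 (limma unadjusted p = 0.0101). C57L/J lungs held 10.19, 9.90 and 10.18 at 0 Gy, 9.26, 9.52 and 9.44 at 12.5 Gy, and 10.04, 10.02 and 10.60 at 15 Gy. The 12.5 Gy lungs stood below both other groups, 1.61-fold lower than sham (-0.68, limma unadjusted p = 0.00257, adjusted p = 0.132), and the 15 Gy lungs were 1.76-fold above them (0.82, limma unadjusted p = 0.00871, adjusted p = 0.988). The first of these calls was lost without sham replicate 1 or 3, at p of 0.0107 to 0.0109, and the second in 5 of 6 leave-one-out fits, at p of 0.0127 to 0.0334. The C57L/J value of 10.60 at 15 Gy came from a muscle array. In CBA/J lungs the values were 9.65, 10.56 and 10.26 at 0 Gy, 10.50, 10.55 and 11.80 at 12.5 Gy, and 9.78, 9.46 and 9.81 at 15 Gy. The single value of 11.80 was the highest of the 27 arrays, on a muscle array, and no CBA/J comparison with sham passed.

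Ier2 (1416442_at) had a lower mean at both doses than in sham lungs in all 3 strains. C57BL/6J lungs gave 11.46, 11.22 and 11.5 at 0 Gy, 10.88, 10.64 and 10.79 at 12.5 Gy, and 11.13, 10.79 and 10.75 at 15 Gy, so that neither irradiated group overlapped sham. The 12.5 Gy difference passed (-0.62, SE 0.14, limma unadjusted p = 0.00511, adjusted p = 0.201), though without 5 of the 6 arrays in turn it did not (0.0117 to 0.0219), and the 15 Gy difference was -0.50 (limma unadjusted p = 0.0235). C57L/J lungs had 11.30, 11.07 and 11.06 at 0 Gy, 10.50, 11.10 and 10.73 at 12.5 Gy, and 11.25, 10.89 and 10.59 at 15 Gy. CBA/J lungs had 10.99, 10.93 and 10.70 at 0 Gy, 10.85, 10.58 and 10.13 at 12.5 Gy, and 10.56, 10.49 and 10.49 at 15 Gy. All 3 CBA/J lungs at 15 Gy lay below every sham lung (-0.36, limma unadjusted p = 0.0256).

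Dusp1 (1448830_at) took opposite directions in C57BL/6J and CBA/J lungs at 15 Gy. C57BL/6J lungs read 13.53, 13.0 and 13.42 at 0 Gy, 12.40, 12.77 and 12.83 at 12.5 Gy, and 12.07, 12.07 and 12.31 at 15 Gy. The 15 Gy lungs were 2.25-fold lower than sham (-1.17, 95% interval -1.63 to -0.71, limma unadjusted p = 0.000836, adjusted p = 0.146), and the 12.5 Gy lungs lay between (-0.65, limma unadjusted p = 0.0204). Between the doses Dusp1 was 1.43-fold lower at 15 than at 12.5 Gy in C57BL/6J (-0.52, limma unadjusted p = 0.0225, adjusted p = 0.9998). The study listed Dusp1 as changed between 12.5 and 15 Gy in this strain, and not between 0 and 12.5 Gy. It used a random variance t test at p under 0.01. CBA/J lungs read 13.30, 13.52 and 13.21 at 0 Gy, 13.79, 12.90 and 13.44 at 12.5 Gy, and 13.86, 13.78 and 13.99 at 15 Gy. At 15 Gy they were 1.45-fold above sham with no overlap (0.54, SE 0.13, limma unadjusted p = 0.00757, adjusted p = 0.158), a call lost in 5 of 6 leave-one-out fits at p of 0.0162 to 0.0306. In C57L/J lungs Dusp1 spread from 12.05 to 13.29 in sham mice and overlapped both doses, with a difference of 0.56 at 15 Gy (limma unadjusted p = 0.197).

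**Figure D2:**
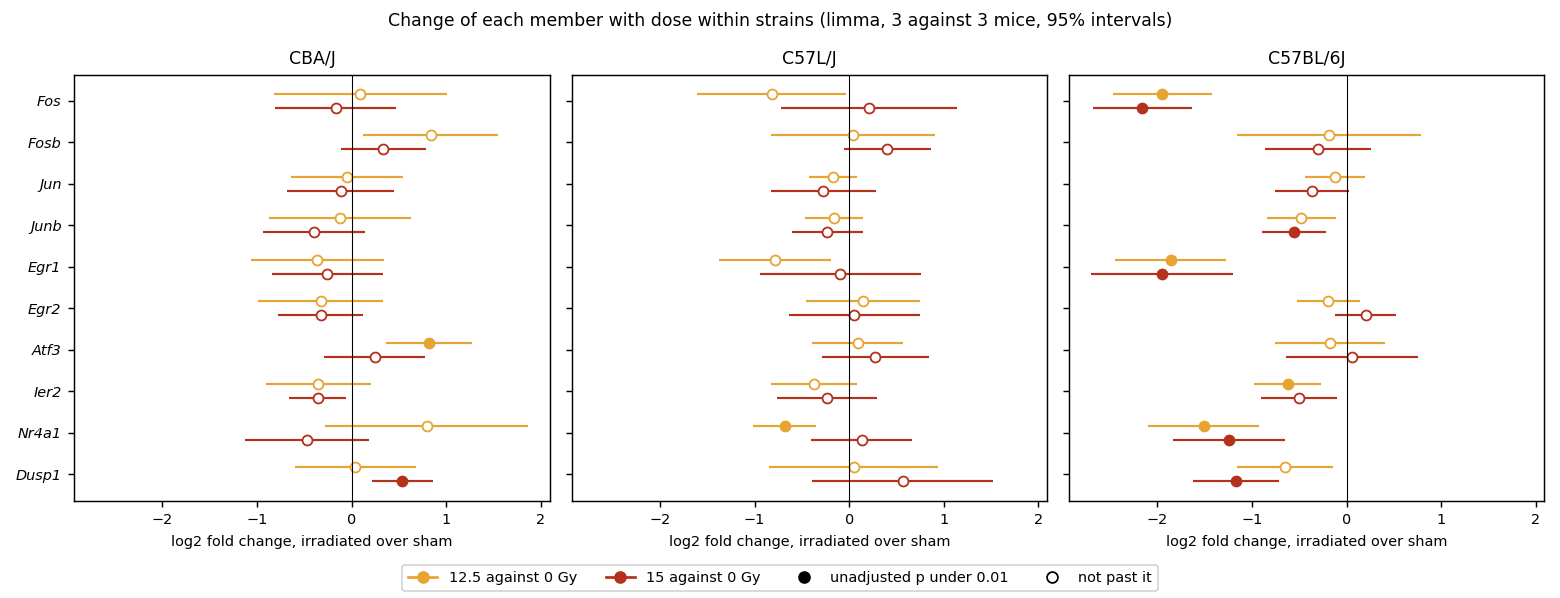
Log2 fold change, irradiated over sham, of each member in each strain, with 95% intervals from limma on 3 against 3 mice; filled points passed an unadjusted p under 0.01. The points furthest from 0 are Fos and Egr1 in C57BL/6J lungs, between -1.86 and -2.16, while the only filled points above 0 are Atf3 (0.82) and Dusp1 (0.54) in CBA/J.

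In C57BL/6J lungs 4 of 10 members passed at 12.5 Gy, all lower, against 3.65% of all genes, and at 15 Gy 5 of 10 passed, all lower, against 3.81%. The 10 members had a median difference of -0.55 at 12.5 Gy and -0.53 at 15 Gy, beside -0.01 and 0.01 over all genes. At an adjusted p under 0.05, 1 member, Fos, passed at 12.5 Gy (0.484% of all genes) and 0 at 15 Gy in limma (0.066%), where 6 had an unadjusted p under 0.05 against 12.5% of all genes. The adjusted call of Fos was lost without any single one of the 6 arrays (adjusted p 0.0876 to 0.152), with the replicate number as a block (0.219) and without the muscle arrays (0.321). In C57L/J lungs 1 member passed at 12.5 Gy (4.53% of all genes, 0.517% at an adjusted p under 0.05), 0 at 15 Gy (1.86%, with 0 members at an unadjusted p under 0.05 either) and 2 between the doses (0.627%). In CBA/J lungs 1 passed at 12.5 Gy (3.28%, 0.033% adjusted) and 1 at 15 Gy (5.61%, 1.01% adjusted), and between the doses 0 passed in limma (1.27%), and 2 had an unadjusted p under 0.05 against 6.87% of all genes. Between the doses in C57BL/6J lungs 0 passed in limma (0.555%), and 2, Egr2 and Dusp1, had an unadjusted p under 0.05 against 3.17% of all genes. These comparisons share their sham mice within a strain. Without the muscle arrays, Fos, Egr1 and Nr4a1 in C57BL/6J lungs still passed at both doses, with 1 irradiated lung left against 3 sham lungs and its spread taken to be that of the others. Fos was then at -2.0 at 12.5 Gy (limma unadjusted p = 0.00535) and -2.05 at 15 Gy (limma unadjusted p = 0.00488), Egr1 was at -2.24 and -2.56, and Nr4a1 was at -1.82 and -1.53. Ier2 at 12.5 Gy (-0.60, limma unadjusted p = 0.0561), Junb at 15 Gy (-0.41, limma unadjusted p = 0.128), Dusp1 at 15 Gy in C57BL/6J (-1.25, limma unadjusted p = 0.0148) and Dusp1 at 15 Gy in CBA/J (0.67, limma unadjusted p = 0.0220) no longer passed.

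Markers of other cells also differed with dose in C57BL/6J lungs. The mean of 6 neutrophil markers there ran from 8.83 to 10.31 at 12.5 Gy and from 9.25 to 10.27 at 15 Gy, against 7.07 to 8.29 in sham lungs, and 4 of the 6 at 12.5 Gy and 5 of the 6 at 15 Gy passed an unadjusted p under 0.01, all higher. Lymphocyte markers ran from 7.36 to 7.47 at 12.5 Gy and from 7.56 to 7.96 at 15 Gy, against 8.72 to 8.94 in sham lungs, with 5 of 7 lower at 12.5 Gy and 4 of 7 at 15 Gy at that threshold. Endothelium markers ran from 11.20 to 11.61 at 12.5 Gy and from 10.97 to 11.60 at 15 Gy, against 11.74 to 11.97 in sham lungs, with 0 of 6 passing at 12.5 Gy in limma and 2 of 6 lower at 15 Gy. Red cell markers ran from 6.58 to 6.93 at 12.5 Gy and from 5.63 to 6.77 at 15 Gy, against 8.0 to 8.76 in sham lungs, with 2 of 3 lower at each dose. Macrophage markers ran from 10.18 to 10.46 at 12.5 Gy and from 10.36 to 10.82 at 15 Gy, against 9.70 to 10.20 in sham lungs. Of these, 0 of 8 passed at 12.5 Gy in limma and 2 of 8 were higher at 15 Gy. The lung epithelium mean overlapped at all doses, with 0 of 8 markers passing at either dose. In CBA/J lungs, where the Fos and Egr1 groups overlapped, lymphocyte markers ran from 6.84 to 7.34 at 12.5 Gy, against 8.50 to 8.91 in sham lungs. Neutrophil (7.59 to 8.69 against 7.68 to 7.80), endothelium and red cell means overlapped sham at that dose. Of their markers 0 of 6, 0 of 6 and 0 of 3 passed in limma. At 15 Gy in CBA/J lungs 6 of 7 lymphocyte markers were lower and 4 of 6 neutrophil markers were higher. No endothelium or red cell marker passed there, with the red cell mean at 6.24 to 7.37 against 7.39 to 7.79 in sham lungs. In C57L/J lungs, where no member passed against sham at 15 Gy, 2 of 7 lymphocyte and 1 of 6 endothelium markers were lower at that dose. No neutrophil or red cell marker passed there, beside 1.86% of all genes. At 12.5 Gy in C57L/J lungs 5 of 7 lymphocyte, 1 of 6 endothelium and 2 of 3 red cell markers were lower. No neutrophil marker passed at that dose, beside 4.53% of all genes. The part of these cells in the members' changes was not tested.

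Pooling the strains asked which members changed with dose on average over 9 irradiated and 9 sham mice. Egr1, Ier2 and Junb were lower after irradiation, and no member was higher. At 12.5 Gy Egr1 fell 2.0-fold (-1.0, SE 0.24, limma adjusted p = 0.00925) and Ier2 fell 1.37-fold (-0.45, SE 0.10, limma adjusted p = 0.00564), 2 of 10 members against 9.04% of all genes called. At 15 Gy Egr1 fell 1.70-fold (-0.77, limma adjusted p = 0.0404), Ier2 fell 1.29-fold (-0.37, limma adjusted p = 0.0202) and Junb fell 1.31-fold (-0.39, limma adjusted p = 0.0208), 3 of 10 against 11.8%. The Egr1 average was uneven, at -1.95 in C57BL/6J, -0.09 in C57L/J and -0.26 in CBA/J lungs at 15 Gy. At 12.5 Gy Egr1 was at -1.86, -0.78 and -0.36 in the same order. Taken in 1 direction, 5.86% of genes were called lower and 3.17% higher at 12.5 Gy, and 6.94% and 4.83% at 15 Gy. Fos averaged -0.89 at 12.5 Gy (limma adjusted p = 0.0571) and -0.71 at 15 Gy (limma adjusted p = 0.123), neither under 0.05. Between 15 and 12.5 Gy 0 members passed by limma (0% of all genes), 0 also at an unadjusted p under 0.05, and the differences ran from -0.14 for Junb to 0.23 for Egr1. Leaving out single arrays ended the Egr1 call at 15 Gy in 10 of 27 fits (adjusted p 0.0569 to 0.0818) and brought in Fos at 12.5 Gy in 6 of 27 (0.0234 to 0.0497). Median-centring ended all 3 calls at 15 Gy (adjusted p 0.0637 for Junb, 0.0650 for Egr1 and 0.0659 for Ier2), and the replicate block ended that of Egr1 (0.0686). Without the muscle arrays no call stood, though the differences kept their sign. Egr1 was then at -1.12 (limma adjusted p = 0.107) and Ier2 at -0.34 (limma adjusted p = 0.179) at 12.5 Gy, and Egr1 was at -0.77 (0.233), Ier2 at -0.22 (0.356) and Junb at -0.36 (0.167) at 15 Gy.

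**Figure D3:**
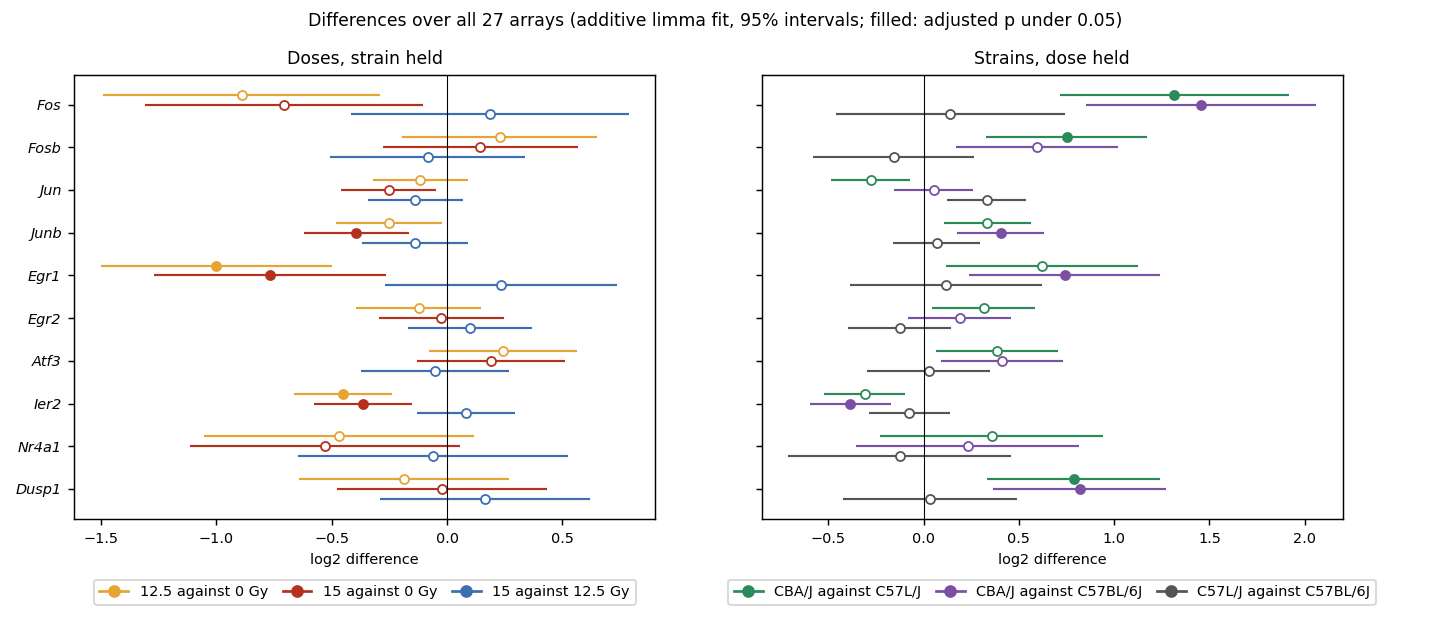
Log2 differences of the 10 members between doses with strain held (left) and between strains with dose held (right), from 1 additive limma fit over 27 arrays, with 95% intervals; filled points passed an adjusted p under 0.05. Filled dose differences are all below 0 (Egr1, Ier2, Junb), and the strain difference furthest from 0 is Fos, 1.46 in CBA/J against C57BL/6J.

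The strains also differed in level with dose held. By array intensity, CBA/J lungs read higher for Fos, Dusp1, Egr1 and Junb and lower for Ier2 than C57BL/6J lungs. They also read higher for Fos, Dusp1 and Fosb than C57L/J lungs. Each of these genes had a single probe set, so no second probe set could check its difference between strains. Against C57BL/6J, Fos was 2.75-fold higher (1.46, 95% interval 0.85 to 2.06, limma adjusted p = 0.00101), Dusp1 1.77-fold higher (0.82, limma adjusted p = 0.0129), Egr1 1.67-fold higher (0.74, limma adjusted p = 0.0448), Junb 1.32-fold higher (0.40, limma adjusted p = 0.0148) and Ier2 1.31-fold lower (-0.38, limma adjusted p = 0.0125). That was 5 of 10 members against 13.3% of all genes. Against C57L/J, Fos was 2.49-fold higher (1.32, limma adjusted p = 0.00293), Dusp1 1.73-fold higher (0.79, limma adjusted p = 0.0194) and Fosb 1.68-fold higher (0.75, limma adjusted p = 0.0159), 3 of 10 against 11.2%. C57L/J and C57BL/6J lungs differed in 0 of 10 members in limma (5.35% of all genes), and Jun alone had an unadjusted p under 0.05 (0.33, limma adjusted p = 0.0526), where 19.0% of all genes did. That contrast averages the doses. Fos averaged 11.16 in C57L/J and 12.18 in C57BL/6J sham lungs, and 11.37 and 10.02 at 15 Gy. Sham Egr1 ran from 11.55 to 12.33 in C57L/J and from 12.50 to 13.04 in C57BL/6J mice. Sham Nr4a1 ran from 9.90 to 10.19 and from 10.60 to 11.22. Jun alone had the higher sham mean in C57L/J, 12.64 beside 12.32. Sham levels were not tested between strains on their own. In sham lungs alone, Fos overlapped between CBA/J mice (11.94 to 12.81) and C57BL/6J mice (11.77 to 12.48). Sham Egr1 averaged 12.43 in CBA/J and 12.75 in C57BL/6J mice, the opposite order to the pooled difference, and sham Dusp1 averaged 13.34 in CBA/J and 13.32 in C57BL/6J mice. Irradiated Fos averaged 12.39 in CBA/J and 10.23 in C57BL/6J mice at 12.5 Gy, and 12.13 and 10.02 at 15 Gy. The higher pooled levels of Fos, Egr1 and Dusp1 in CBA/J than in C57BL/6J thus lay mainly in the irradiated lungs. The Egr1 call against C57BL/6J was lost in 17 of 27 leave-one-out fits (adjusted p 0.0506 to 0.0968), while the other 7 strain calls stood in all 27. Without the muscle arrays 2 of these 8 calls stood, Fos in CBA/J against C57L/J (1.22, limma adjusted p = 0.0483) and Ier2 in CBA/J against C57BL/6J (-0.52, limma adjusted p = 0.0465), and Fos in CBA/J against C57BL/6J was at 1.01 (limma adjusted p = 0.170).

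Whether the dose changes themselves differed between strains was tested by the interaction of strain and dose. With a limma F test over its 4 terms, 0 members passed an adjusted p under 0.05 (0% of all genes). At an unadjusted limma p under 0.01, Fos (limma unadjusted p = 5.34e-05), Nr4a1 (5.77e-05), Dusp1 (0.00140) and Egr1 (0.00141) passed, 4 of 10 members against 1.43% of all genes, and their adjusted p ran from 0.277 to 0.461. These 4 stayed under 0.01 without each array in turn, with the highest p at 0.000328 for Fos, 0.000185 for Nr4a1, 0.00785 for Egr1 and 0.00559 for Dusp1. At 15 Gy the change in CBA/J exceeded that in C57BL/6J by 1.99 for Fos (SE 0.43), 1.70 for Dusp1 (SE 0.39) and 1.70 for Egr1 (SE 0.43). In C57L/J it exceeded the C57BL/6J change at 15 Gy by 2.37 for Fos (limma unadjusted p = 2.22e-05, adjusted p = 0.219), 1.86 for Egr1 and 1.73 for Dusp1. At 12.5 Gy the CBA/J change exceeded the C57BL/6J change by 2.30 for Nr4a1 (limma unadjusted p = 2.32e-05, adjusted p = 0.421) and 2.04 for Fos. These differences share each strain's sham mice. Without the muscle arrays the interaction p was 0.00290 for Fos, 0.000322 for Nr4a1, 0.000592 for Egr1 and 0.02 for Dusp1.

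The members were next compared mouse by mouse within groups. After each group's mean was taken off, the 45 pairs of members had Pearson correlations over the 27 arrays of -0.48 to 0.65 with a median of 0.19, and 32 were above 0. Fosb and Nr4a1 varied together (r = 0.644, permutation p = 0.00096, adjusted over 45 pairs 0.0432, Spearman rho = 0.670, permutation p = 0.00202, adjusted 0.0909). Without the 2 arrays furthest from the median their r was 0.619, and it was 0.789 on the 9 muscle arrays and 0.488 on the other 18. Fos and Dusp1 had the highest r, 0.650, but a permutation p of 0.0239 (adjusted 0.369), and Fos and Egr1 had r = 0.469 (permutation p = 0.0530, adjusted 0.369). Nr4a1 ran against Jun (r = -0.481, permutation p = 0.0582, adjusted 0.369). Without the muscle arrays 0 pairs passed. Of the 10 members, Fos (r = 0.766) and Egr1 (r = 0.758) lay nearest to the mean of all 10 and Jun (r = 0.209) furthest from it, each being part of that mean.

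**Figure D4:**
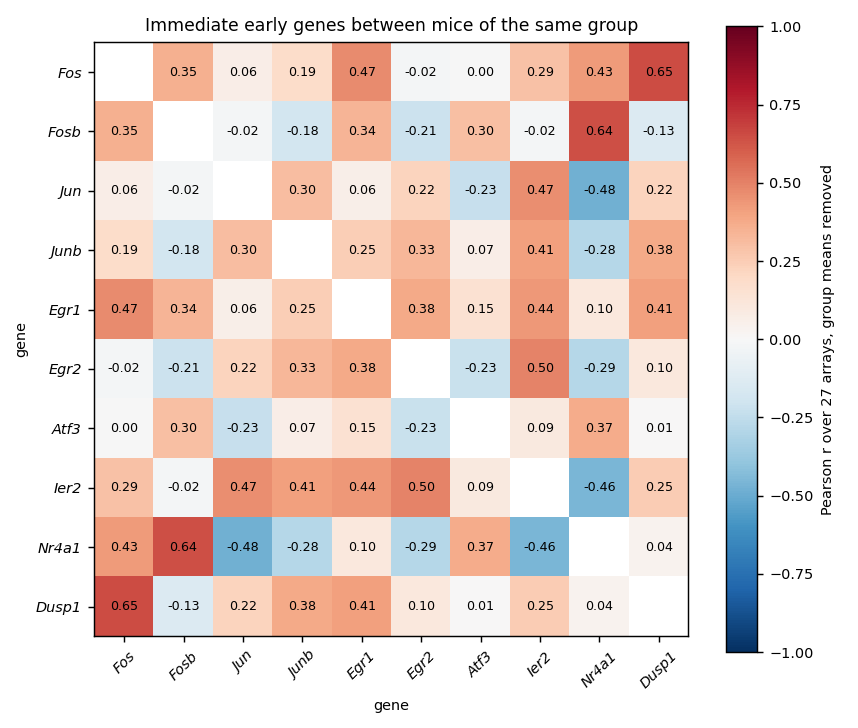
Pearson correlation of each pair of members over 27 arrays after the mean of each of the 9 groups was subtracted, from -1 (blue) to 1 (red). Fos with Dusp1 (0.65) and Fosb with Nr4a1 (0.64) are the darkest red cells, and Jun with Nr4a1 (-0.48) is the darkest blue.

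Among 13819 other genes with a mean log2 intensity of at least 6, those most like the mean of the 10 members from mouse to mouse were Sema3d (r = 0.683), Cdpf1 (0.682), Calhm5, Dydc2, Anxa1 (0.662), Grpel2, Tesk2, Zfp953, Plk3 (0.643) and Spag1 (0.625), over 27 arrays with group means removed. Sema3d encodes a secreted guidance protein, Anxa1 annexin A1, and Plk3 a polo-like kinase that is itself an early response gene. Their r served to pick them and is a description. With dose over the 3 strains Anxa1 rose by 0.29 at 12.5 Gy (limma adjusted p = 0.0240) and 0.44 at 15 Gy (limma adjusted p = 0.000639), Dydc2 rose by 0.40 at 15 Gy (limma adjusted p = 0.0335), and Zfp953 fell by 0.41 at 12.5 Gy (-0.41, limma adjusted p = 0.0444).

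Genes around the members in the pathway were read from 6 lists, over the 3 strains, at an adjusted p under 0.05, which 9.04% of all genes passed at 12.5 Gy and 11.8% at 15 Gy. Of 18 upstream kinases and SRF, ternary complex and CREB factors, 1 rose and 1 fell at 12.5 Gy and 2 rose and 2 fell at 15 Gy. Crem, a cyclic AMP response factor, rose by 0.39 and 0.41, and Elk4, a ternary complex factor, was at -0.32 and -0.34. Mapk9, the JNK2 kinase, rose by 0.31 at 15 Gy, and Mrtfa, an SRF coactivator, was at -0.29 there. Of 13 other AP-1 and ATF family genes, none rose, and 2 fell at 12.5 Gy and 3 at 15 Gy. Batf3, a factor of dendritic cells, was at -1.12 (limma adjusted p = 3.63e-05) and -0.70 (limma adjusted p = 0.00531), Atf5 was at -0.43 at both doses, and Atf4 was at -0.23 at 15 Gy. Of 16 other early transcription factors, 2 rose and 2 fell at 12.5 Gy, and 2 rose and 3 fell at 15 Gy. Nfil3 rose by 1.45 and 1.19, Irf1 was at -0.55 and -0.40, Egr3, a relative of Egr1, fell at 12.5 Gy (-0.75, limma adjusted p = 0.00930), and Klf6 fell at 15 Gy (-0.38, limma adjusted p = 0.00898).

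Of 31 other early feedback and effector genes, 4 rose and 6 fell at 12.5 Gy, and 4 rose and 5 fell at 15 Gy. Rhob, a small GTPase gene, rose by 0.44 and 0.43 and Sgk1, a kinase gene, by 0.51 and 0.54, while Ccn2, a matrix growth factor gene, was at -0.55 and -0.56 and Zfp36l2, an mRNA decay factor gene, at -0.48 and -0.30. Of 10 heat shock genes, which rise with stress to the tissue, 1 rose at 12.5 Gy, Hsph1 (0.35, limma adjusted p = 0.0458), and 1 at 15 Gy, Hsp90aa1 (0.26, limma adjusted p = 0.0280). Of 16 p53 target genes, the usual response to DNA damage, 15 rose at 12.5 Gy and 14 at 15 Gy and none fell. Cdkn1a, the p21 cell cycle inhibitor, rose by 3.15 and 3.18, Eda2r by 2.29 and 2.41, Ccng1 by 2.18 and 2.26 and Phlda3 by 1.96 and 2.02. The list medians were 1.35 and 1.32 for p53 targets, 0.19 and 0.12 for heat shock genes and -0.22 and -0.31 for the 10 members, beside -0.01 and -0.01 over all genes. Between 15 and 12.5 Gy 0 genes of these lists passed by limma. In C57BL/6J lungs, at an unadjusted p under 0.01, 4 of the 16 early transcription factors and 5 of the 31 feedback genes were lower at 12.5 Gy and 3 and 4 were lower at 15 Gy, with 0 and 1 higher at each dose, beside 3.65% of all genes called in either direction at 12.5 Gy and 3.81% at 15 Gy.

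**Figure D5:**
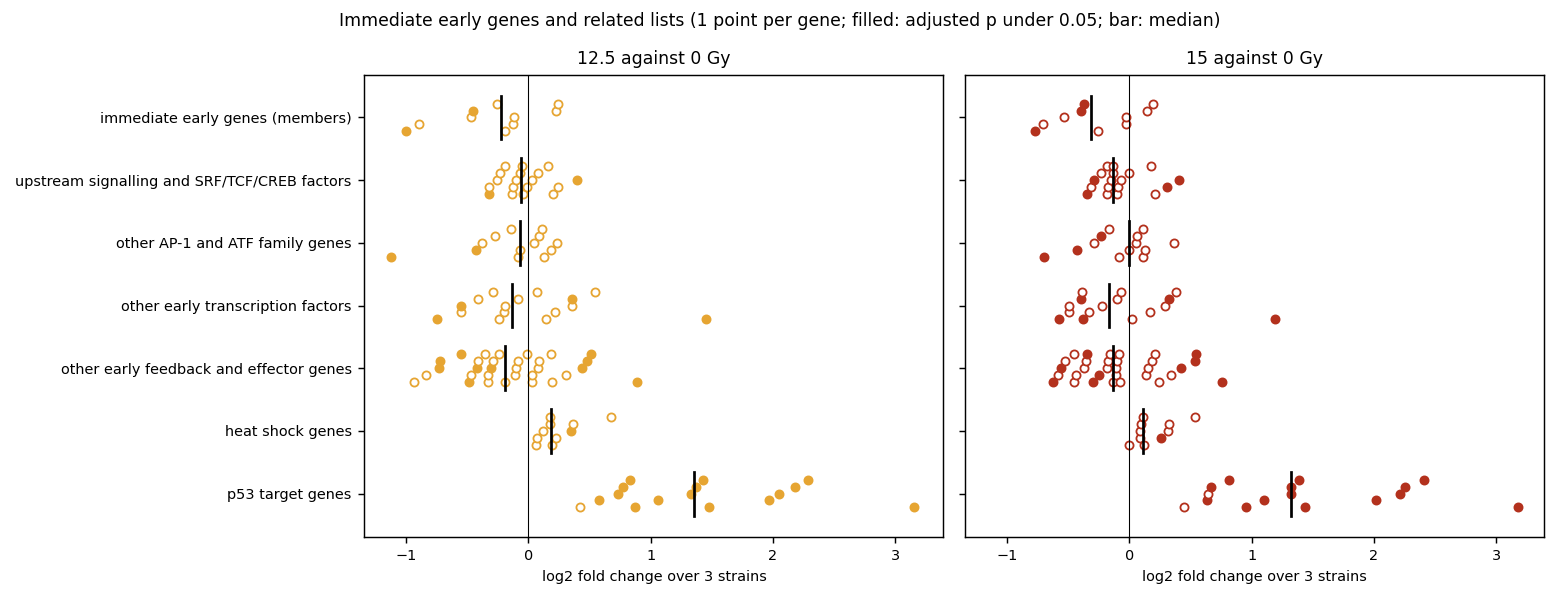
Log2 fold change over 3 strains of every measured gene of each list, 12.5 against 0 Gy (left) and 15 against 0 Gy (right), with 1 point per gene, filled where the adjusted p was under 0.05, and a bar at the list median. The members' medians lie at -0.22 and -0.31 and the p53 target medians at 1.35 and 1.32.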

How the data were processed

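Lung RNA (right upper lobe) of 27 mice was hybridised to Affymetrix whole-genome mouse arrays, 1 array per mouse. The deposited values were linear intensities made by the authors with Affymetrix Expression Console 1.1, per the submitters' processing notes, with no probe summary method given in the sources used here. The trimmed mean (2% off each end) was 500.002 on every array, so a change in total RNA per cell cannot be seen. With arrays, the number of mice limits the precision. The limma p-values set each difference against the spread between mice, moderated by the spread of all genes.

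Intensities were floored at 1 and log2 transformed. Of 45101 probe sets, 34958 had 1 gene symbol (34754 of them current), 932 had several and 9211 had none in the platform table; the brightest probe set, by mean over all arrays, stood for each of 18194 genes. Tests used limma 3.58.1 in R 4.3.3, tested on simulated data. Within strains, 6 arrays entered each of 9 comparisons. The pooled dose and strain differences came from an additive fit of strain and dose, and the interaction from a fit with 4 further terms. P-values were adjusted by Benjamini-Hochberg over all genes. Pairs of members were tested with 100000 permutations within groups in numpy 2.4.6.

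The 10 members and all lists (6 pathway lists, and markers of lung epithelium, endothelium, smooth muscle and fibroblasts, skeletal and cardiac muscle, squamous epithelium, thyroid, fat, neutrophils, macrophages, lymphocytes, mast cells and red cells) were chosen with earlier results of these data known. From each pathway list up to 4 genes with the lowest adjusted p under 0.05 at either dose over the 3 strains were named, and 10 other genes with the highest correlation to the members' mean. An array counted as holding muscle when its skeletal muscle mean lay over 2 above the median array. Same-numbered mice were checked for pairing: all 3 correlations passed 0.1 in 1 of 9 pairs of groups, CBA/J at 12.5 and 0 Gy, and the correlations ran from -0.264 to 0.472 overall. No 2 arrays correlated above 0.9706, and none were treated as copies. Alternatives covered the test, call rule, scaling, floor, filter, probe set, replicate block, left-out arrays and muscle arrays.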

Additional observations from a re-analysis of the deposited data

Results flagged for a closer look

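Dusp1 moved in opposite directions at 15 Gy in 2 strains. In C57BL/6J lungs it was lower than in sham lungs on every array (-1.17 on the log2 scale), and in CBA/J lungs it was higher than in sham lungs on every array (0.54). The difference between these changes, CBA/J minus C57BL/6J, was 1.70 (SE 0.39, limma unadjusted p = 0.000271), with an adjusted p of 0.247 over all genes. The CBA/J call was lost in 5 of 6 leave-one-out fits. In C57L/J lungs Dusp1 was at 0.56 at 15 Gy (limma unadjusted p = 0.197), and the doses overlapped.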

How the results depend on the processing

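Of 14 calls within strains, 1 stood at an adjusted p under 0.05, 7 were made with the replicate number as a block and 9 without the muscle arrays, where 7 of 9 comparisons could be fitted. Without those arrays 0 members were called at 12.5 Gy and 0 at 15 Gy over the 3 strains, 3 between strains (Fos and Jun in CBA/J against C57L/J, Ier2 in CBA/J against C57BL/6J) and 0 pairs; fewer mice enter these fits. At 15 Gy over the 3 strains, 5 members were called in a fit of 9 group means and 0 after median-centring. Between strains 13 calls were made after quantile normalization. At an unadjusted p under 0.01, 4 members had an interaction. With the replicate block, whose numbers paired the mice in 1 of 9 pairs of groups, 2 members were called at each dose over the strains, 9 between strains and 0 for the interaction. Leaving out single arrays gave 11 to 14 calls within strains, 2 to 4 at 12.5 Gy, 2 to 4 at 15 Gy, 0 between the doses, 7 to 12 between strains and 0 for the interaction. The cause was not tested.

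Of the dose differences over the 3 strains, those that turned sign passed in no fit; uncalled within-strain and strain differences were not followed through every setting, and some of them turned without the muscle arrays too. Without the muscle arrays Fosb was at -0.10 and Egr2 at 0.11 at 12.5 Gy, Dusp1 at 0.15 at 15 Gy, and between 15 and 12.5 Gy Fosb was at 0.17, Jun at 0.057, Egr2 at -0.12 and Nr4a1 at 0.12. With array weights Egr2 (0.0021) and Dusp1 (0.052) at 15 Gy and Nr4a1 between the doses (0.0083) turned, and with muscle as a covariate Egr2 (0.0021) and Dusp1 (0.0517) at 15 Gy. Egr2 at 15 Gy was at 0.043 with the mean of its probe sets and 0.11 with its second, and Dusp1 at 15 Gy was at 0.0005 after median-centring. Leaving out single arrays gave -0.10 to 0.031 for Egr2 and -0.13 to 0.080 for Dusp1 at 15 Gy, and between the doses -0.22 to 0.033 for Fosb, -0.12 to 0.022 for Atf3 and -0.18 to 0.17 for Nr4a1. Median-centring moved the share of calls that were higher from 35.1% to 57.18% at 12.5 Gy over the strains, 37.23% to 59.09% in C57L/J at 12.5 Gy, 41.53% to 52.21% in CBA/J at 15 Gy, 47.84% to 80.16% in C57L/J against C57BL/6J and 42.88% to 69.44% in CBA/J against C57BL/6J, and put the median of all genes at 0.109 in CBA/J at 12.5 Gy. At the unadjusted threshold, Fos and Egr1 at both doses and Nr4a1 at 12.5 Gy in C57BL/6J passed under each other setting of the fit and without each of the 6 arrays compared; at an adjusted p under 0.05 in the reported fit, Fos at 12.5 Gy alone did.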

Other observations

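Markers of some other cell types also differed with dose over the 3 strains, at a limma adjusted p under 0.05. Of all genes, 9.04% passed that threshold at 12.5 Gy and 11.8% at 15 Gy. Neutrophil markers rose, 3 of 6 at 12.5 Gy and 2 of 6 at 15 Gy, and lymphocyte markers fell, 6 of 7 and 7 of 7, with the B cell gene Cd79a at -2.34 and -1.74. Endothelium markers fell for 1 of 6 at 12.5 Gy and 3 of 6 at 15 Gy, mast cell markers for 1 of 6 at each dose and red cell markers for 2 of 3 at each dose. Of 8 macrophage markers, 1 rose and 1 fell at each dose. Counts of 1 in a list of 6 or 8 were near the share over all genes and are not read as a change of that cell type. Of the lung epithelium (8), smooth muscle and fibroblast (8), skeletal muscle (10), cardiac muscle (7), squamous epithelium (7), thyroid (4) and fat (5) markers, 0 passed at either dose in limma, and 0 also at an unadjusted p under 0.01. Single arrays held other tissues, with the thyroglobulin gene Tg at 15.08 on 1 array against a median of 4.56 over 27.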
